A study of Mus musculus with 12 samples.

Results

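Genes of the inflammatory response were followed through the RNA-seq table, namely the cytokine genes Il1a, Il1b, Il6, Tnf, Il12b, Il23a, Il10 and Il18, the inflammasome sensor gene Nlrp3 and the itaconate synthase gene Acod1. They were picked out of the table by symbol, with earlier results of these data known, and all 10 of them were found once each among the 54532 genes of the count table. Of these, 8 passed the filter on low counts (over 0.5 CPM, reads scaled to a common library total, in 2 or more of the 12 libraries), as did 14894 genes of the whole table, whereas Il23a and Il10 did not. The libraries came from wild-type (WT) C57BL/6 mouse bone marrow cells that were kept in medium with GM-CSF and IL-6, cytokines that drive the growth of immature myeloid cells, and were harvested on day 5. The study asked how indole-3-propionic acid (IPA), a tryptophan product of gut bacteria, acts on the myeloid-derived suppressor cells generated in this way. For this, 4 libraries each were made from cultures with vehicle (0.1% DMSO), 10 µM IPA and 50 µM IPA. The study calls 50 µM supraphysiological and reports slightly lower cell viability at 50 µM but not at 10 µM. For that reason it focused its own RNA-seq analysis on 10 µM. Whether the lower viability bears on the differences at 50 µM given here was not tested. Whether the 4 libraries of a group came from separate mice or from pooled marrow is not given in the sources used here, so the p-values measure only the spread between these libraries. Counts on genes lay between 20451312 and 28038612 per library.

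Interleukin-1α and interleukin-1β, the products of Il1a and Il1b, act on the same receptor, and in myeloid cells their genes are switched on by NF-κB downstream of microbial and damage signals. Interleukin-1β and interleukin-18 are made as inactive precursors and are cut by caspase-1 once a sensor such as NLRP3 has assembled an inflammasome, so that the level of their mRNA and the release of the mature protein are separate steps. Tnf, Il6, Il12b and Il23a encode secreted cytokines of activated myeloid cells, Il10 encodes a cytokine that dampens them, and Acod1 encodes the mitochondrial enzyme that turns cis-aconitate into itaconate.

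For the 4 genes on which the results turn, the 250 bases before the annotated start (RefSeq, GRCm38.p6) are shown because the levels of Il1b, Tnf and Nlrp3 differed between groups while Il1a, the neighbour of Il1b, had another pattern. Il1a (ENSMUSG00000027399, chr2:129299610-129309972, minus strand) and Il1b (ENSMUSG00000027398, chr2:129364570-129371139, minus strand) lie in the same orientation on one chromosome of GRCm38. Tnf (ENSMUSG00000024401) lies at chr17:35199381-35202007 on the minus strand and Nlrp3 (ENSMUSG00000032691) at chr11:59541568-59566956 on the plus strand. Each sequence is written 5′ to 3′ on the strand of its gene and ends at the last base before the RefSeq start, and capitals mark matches on either strand to TATAAA, the TATA box, to TGANTCA, the AP-1 element, or to the κB consensus. The windows are chr2:129309973-129310222 for Il1a, chr2:129371140-129371389 for Il1b, chr17:35202008-35202257 for Tnf and chr11:59541319-59541568 for Nlrp3.
Il1a: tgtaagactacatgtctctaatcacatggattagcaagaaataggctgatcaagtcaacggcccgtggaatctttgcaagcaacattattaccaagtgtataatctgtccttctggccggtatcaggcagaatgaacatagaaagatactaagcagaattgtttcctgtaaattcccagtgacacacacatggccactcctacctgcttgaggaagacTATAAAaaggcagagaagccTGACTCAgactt
Il1b: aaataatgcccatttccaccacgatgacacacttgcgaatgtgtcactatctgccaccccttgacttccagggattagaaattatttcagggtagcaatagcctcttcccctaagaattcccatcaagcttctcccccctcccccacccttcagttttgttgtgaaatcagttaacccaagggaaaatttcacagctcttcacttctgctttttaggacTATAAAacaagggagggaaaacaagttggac
Tnf: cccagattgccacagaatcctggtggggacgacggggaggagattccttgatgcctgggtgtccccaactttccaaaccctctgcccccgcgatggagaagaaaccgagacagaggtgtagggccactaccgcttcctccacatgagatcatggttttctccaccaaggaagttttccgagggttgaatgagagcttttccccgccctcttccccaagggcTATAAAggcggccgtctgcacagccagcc
Nlrp3: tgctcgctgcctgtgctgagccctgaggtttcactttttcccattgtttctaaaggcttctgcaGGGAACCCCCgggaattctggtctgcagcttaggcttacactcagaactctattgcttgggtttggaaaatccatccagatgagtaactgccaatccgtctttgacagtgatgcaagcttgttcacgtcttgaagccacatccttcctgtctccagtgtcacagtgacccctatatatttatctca
The windows of Il1a, Il1b and Tnf each held TATAAA, at 32, 31 and 29 bases before the start, and 12.4% of 32851 mouse promoter windows of the same length held it. Il1a alone of these 4 held TGANTCA, 12 bases before the start (6.75% of all windows), and Nlrp3 alone held the κB consensus, 186 bases before the start (5% of all windows). RefSeq lists a second start for Nlrp3, and its window (chr11:59542436-59542685, not shown) held none of the 3 motifs. Windows were found for 8 of the 10 genes, and the remaining members with a match were Il6 (the κB consensus and TGANTCA), Il18 and Acod1 (TATAAA each). A match is a description of the letters, and the absence of one says only that these letters are not in the window.

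Per kilobase of exon, the scale on which genes can be compared, Il1b had the highest level of the 10 genes, with a mean of 111 CPM per kb over the 12 libraries, which placed it at percentile 97.0 of the genes tested. Acod1 (46.4 CPM per kb), Nlrp3 (42.8) and Tnf (39.5) followed. With vehicle these 3 were at 41.8 ± 2.82, 44.7 ± 5.22 and 38.8 ± 9.85 CPM per kb (SD, n = 4), and their ranges of mean ± SD overlapped. Il1a was at 23.5 CPM per kb, at percentile 84.1. A wide gap separated these 5 genes from Il6 (2.72 CPM per kb), Il18 (1.45) and Il12b (0.474), at percentiles 39.3, 29.5 and 15.5. At 50 µM the order behind Il1b (74.5 ± 7.98 CPM per kb) was Tnf (48.9 ± 3.37), Acod1 (47.4 ± 5.70) and Nlrp3 (38.3 ± 1.29). Il1b thus stayed the most abundant of the 10 mRNAs per length in each group.

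**Figure D1:**
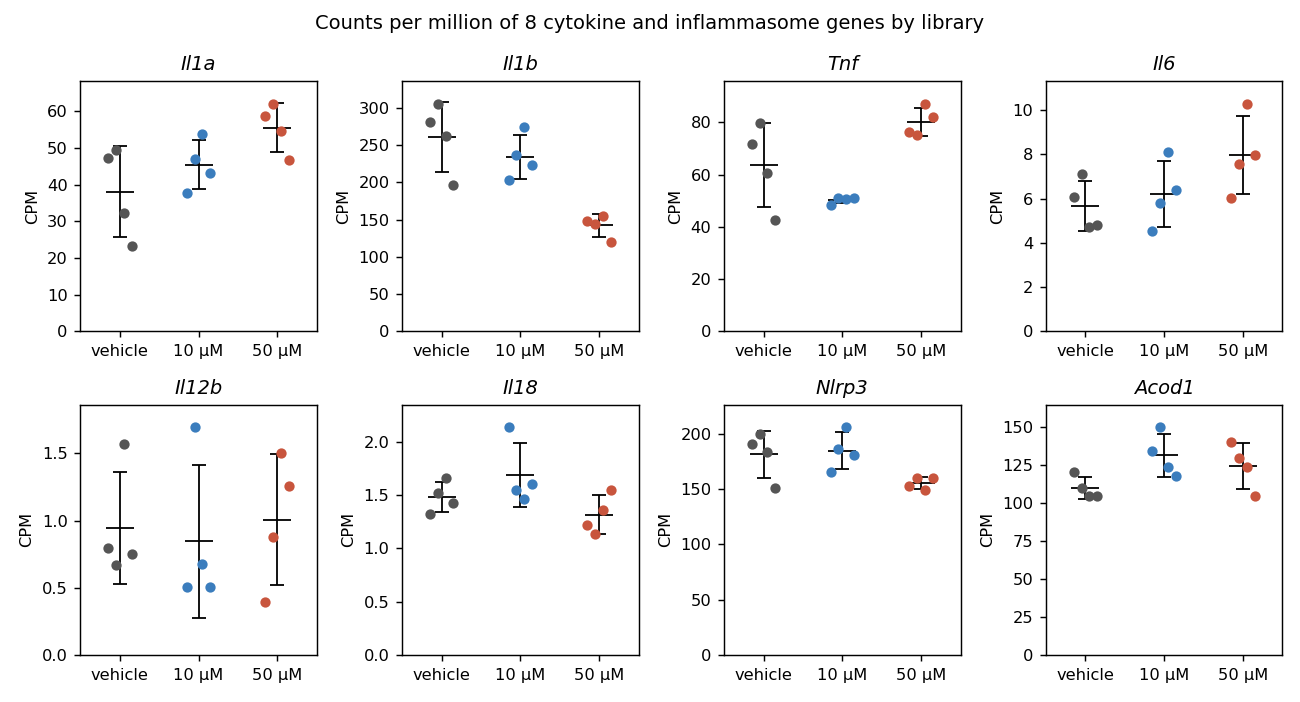
Level of the 8 genes that passed the filter, in CPM (vertical axis from 0) with vehicle, 10 µM and 50 µM IPA. Points are the 4 libraries of a group and black marks the mean ± SD; the 4 libraries at 50 µM lie below all others for Il1b (120 to 155 CPM), and above all 10 µM libraries for Tnf (75.1 to 87.1 against 48.4 to 50.9 CPM).

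Il1b mRNA was lower at 50 µM IPA than in both other groups. It was at 281, 306, 263 and 196 CPM in the 4 vehicle libraries, at 203, 237, 274 and 223 CPM at 10 µM, and at 148, 145, 155 and 120 CPM at 50 µM. Every library at 50 µM was below every library of the other groups, while vehicle and 10 µM overlapped. The group means were 261 ± 46.8, 234 ± 29.8 and 142 ± 15.2 CPM (SD, n = 4). By edgeR's quasi-likelihood test Il1b fell by 45.3% from vehicle to 50 µM (log2 fold change -0.87, SE 0.12, adjusted p = 0.000448). Against 10 µM it was lower as well (log2 fold change -0.72, SE 0.09, adjusted p = 8.53e-05, edgeR), and at 10 µM against vehicle no difference passed the test (-0.16, SE 0.13, adjusted p = 0.827, edgeR). Both calls held when any 1 library was left out, with adjusted p up to 0.00298 and 0.000493. Il1b was the only one of the 8 tested genes that differed between 50 µM and vehicle at an adjusted p under 0.05, against 13.5% of all genes tested (7% higher and 6.5% lower). It was also the only one whose groups did not overlap there, against 20% of all genes (9.45% higher and 10.5% lower). The strand setting of the counting is not given in the sources used here, but Il1bos, annotated over Il1b on the other strand, had 3 to 21 counts where Il1b had 2864 to 8234.

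In the same comparisons the libraries also differed in markers of the cells they held. The summed level of 12 neutrophil markers was 21567 to 30111 CPM with vehicle, 20371 to 23418 CPM at 10 µM and 15704 to 21400 CPM at 50 µM, and 7 of the 12 were lower at 50 µM than with vehicle (edgeR), where 7% of all genes were higher and 6.5% lower. The 6 monocyte markers summed to 2687 to 3423, 3837 to 4923 and 2417 to 3120 CPM, and the 10 macrophage markers to 3242 to 3580, 4017 to 4421 and 4567 to 4771 CPM. Of these, 3 monocyte markers were lower, and 3 macrophage markers higher and 2 lower, at 50 µM than with vehicle. Single genes carried much of both sums. Without Fn1, the other 5 monocyte markers had mean sums of 1632 CPM with vehicle, 1890.4 CPM at 10 µM and 1091 CPM at 50 µM. Without Lpl, the other 9 macrophage markers had 1863, 2189 and 1796 CPM. The macrophage sum was thus higher at 50 µM than with vehicle only with Lpl included. The 10 dendritic cell markers summed to 1295 to 1490 CPM with vehicle, 1379 to 1581 CPM at 10 µM and 1277 to 1444 CPM at 50 µM. Without Itgax, the other 9 had mean sums of 773, 802 and 660 CPM, most of it from H2-Aa (674, 699 and 527 CPM). Of the 10 markers, 4 (Zbtb46, Clec9a, Ccr7 and Batf3) were higher and 1 (H2-Aa) lower at 50 µM than with vehicle. At 50 against 10 µM, where 7.52% of all genes were higher and 7.85% lower, 6 neutrophil and 5 monocyte markers were lower, 2 macrophage markers were higher and 6 lower, and 2 dendritic cell markers were higher and 1 lower. The 6 B cell markers summed to 19.1 to 27.2 CPM with vehicle and 37.9 to 60.9 CPM at 50 µM. A set of 4 of 9 T or NK cell markers and all 4 erythroid markers had a mean over the 12 libraries under 0.5 CPM, and no marker list had a member at 0 in all libraries. In bulk libraries fewer cells of a type and less RNA per cell cannot be told apart, and the part of these shifts in the levels of Il1b or of any other gene given here was not tested.

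Il1a did not follow Il1b. It was at 47.1, 49.3, 32.3 and 23.3 CPM with vehicle, at 37.8, 46.8, 53.9 and 43.3 CPM at 10 µM, and at 58.8, 62.0, 54.5 and 46.7 CPM at 50 µM. The means were 38.0 ± 12.4, 45.5 ± 6.73 and 55.5 ± 6.63 CPM (SD, n = 4), but the groups overlapped in each comparison and the vehicle libraries had the widest spread. The log2 fold change from vehicle to 50 µM was 0.55 (SE 0.19, adjusted p = 0.0668, edgeR) and that from 10 to 50 µM was 0.29 (SE 0.11, adjusted p = 0.0771, edgeR), and neither passed the threshold of 0.05. At 10 µM against vehicle it was 0.26 (SE 0.20, adjusted p = 0.824, edgeR). The difference at 50 µM passed under 3 of 8 alternative settings, with DESeq2 (adjusted p = 0.0272), without a filter (edgeR, adjusted p = 0.00255) and with replicate numbers as a block (edgeR, adjusted p = 0.00736), and without vehicle replicate 2 (log2 fold change 0.70, edgeR, adjusted p = 0.0229). Between 50 and 10 µM, the difference passed without 10 µM replicate 3 (0.39, adjusted p = 0.0248) and without 50 µM replicate 4 (0.37, adjusted p = 0.0388, edgeR). Gm14023, annotated over Il1a on the other strand, had 22 to 87 counts against 586 to 1694 for Il1a.

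Within libraries, the balance of the 2 interleukin-1 mRNAs was lowest at 50 µM. The ratio of Il1b to Il1a counts per base of exon was 6.17, 6.41, 8.41 and 8.72 with vehicle, 5.56, 5.23, 5.26 and 5.34 at 10 µM, and 2.61, 2.41, 2.95 and 2.66 at 50 µM. No pair of groups overlapped in this ratio, also not vehicle and 10 µM, which overlapped for each gene alone. The means were 7.43 ± 1.33, 5.35 ± 0.149 and 2.66 ± 0.220 (SD, n = 4). The log2 differences were -0.46 for 10 µM against vehicle, -1.47 for 50 µM against vehicle and -1.01 for 50 against 10 µM. The ratios were chosen after the levels had been seen and restate them within each library, so they are a description with no test, and the 3 comparisons share libraries.

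Il1rn, which encodes the antagonist that occupies the receptor without signalling, was at 547 ± 43.5 CPM with vehicle, 649 ± 40.3 at 10 µM and 772 ± 44.6 at 50 µM (SD, n = 4). It was higher at 50 µM than with vehicle (log2 fold change 0.50, adjusted p = 0.000882) and than at 10 µM (0.25, adjusted p = 0.0144, edgeR). Il1r2, the decoy receptor, was at 451 ± 47.9 CPM with vehicle, 414 ± 20.1 at 10 µM and 356 ± 41.2 at 50 µM, and the fall at 50 µM passed the test although the groups overlapped (-0.34 on the log2 scale, adjusted p = 0.0358, edgeR). Il1rap, the chain shared by receptors of the interleukin-1 family, was at 78.4 ± 4.57, 78.6 ± 4.42 and 56.8 ± 2.34 CPM and lower at 50 µM than with vehicle (log2 fold change -0.46, adjusted p = 0.00112, edgeR). Il1r1, the signalling receptor, was at 6.28 ± 0.760, 8.47 ± 2.00 and 4.43 ± 1.30 CPM and lower at 50 than at 10 µM (log2 fold change -0.94, adjusted p = 0.00627, edgeR) with overlapping groups, and the difference from vehicle did not pass (-0.50, adjusted p = 0.109). Of 6 partner subunits and antagonists in all, 2 were higher (Il1rn and Il27) and 1 lower (Il1r2) at 50 µM than with vehicle, where 7% of all genes were higher and 6.5% lower, with a median log2 fold change of 0.13 against 0.01 over all genes tested. At 10 µM against vehicle none of the 6 passed edgeR's test, and 1 (Il1rn) had an unadjusted p under 0.05, as did 8.78% of all genes tested.

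Tnf was higher at 50 than at 10 µM IPA. It was at 71.8, 79.6, 60.5 and 42.5 CPM with vehicle, at 48.4, 50.9, 50.6 and 50.9 CPM at 10 µM, and at 76.4, 75.1, 87.1 and 82.0 CPM at 50 µM. All 4 libraries at 50 µM lay above all 4 at 10 µM, while the vehicle libraries spanned the range between and overlapped both. The means were 63.6 ± 16.1, 50.2 ± 1.20 and 80.2 ± 5.53 CPM (SD, n = 4). From 10 to 50 µM Tnf was 1.60-fold higher (log2 fold change 0.68, SE 0.07, adjusted p = 8.25e-06, edgeR). This call held when any 1 library was left out (adjusted p up to 8.38e-05) and under all 8 alternative settings (adjusted p up to 0.00332). Against vehicle, neither 10 µM (log2 fold change -0.34, SE 0.15, adjusted p = 0.550, edgeR) nor 50 µM (0.34, SE 0.15, adjusted p = 0.145, edgeR) passed the test. Single vehicle libraries weighed on these values. Without vehicle replicate 4, the lowest for Tnf, Il1a, Il1b and Nlrp3, the difference at 10 µM was -0.49 (edgeR, adjusted p = 0.0209). Without vehicle replicate 1 the adjusted p was 0.848 (edgeR). Over all fits that left out 1 library, the difference was -0.49 to -0.21 at 10 µM and 0.19 to 0.46 at 50 µM. The counts of vehicle replicate 4 had a trend of -0.0383 in log2 CPM per doubling of exon length, against 0.0107 to 0.0410 in the other vehicle libraries. The trend was steeper still in 10 µM replicate 1 (-0.0485) and 50 µM replicate 3 (-0.0664). With an offset for exon length in each library, the log2 fold change of Tnf was 0.66 between 50 and 10 µM (edgeR, adjusted p = 2.33e-06), 0.27 at 50 µM against vehicle (adjusted p = 0.283) and -0.39 at 10 µM (adjusted p = 0.464). Within libraries, the ratio of Tnf to Il1b per length was 0.280 ± 0.0245 with vehicle, 0.252 ± 0.0271 at 10 µM and 0.663 ± 0.0907 at 50 µM (SD, n = 4), with no overlap between 50 µM and the other groups (log2 differences 1.24 and 1.39, a description with no test).

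Il6 passed the test in no comparison. Its 4 vehicle libraries had 6.05, 7.09, 4.70 and 4.81 CPM, those at 10 µM 4.53, 5.81, 8.12 and 6.41 CPM, and those at 50 µM 6.01, 7.58, 10.3 and 7.97 CPM. The groups overlapped throughout. The log2 fold change from vehicle to 50 µM was 0.50 (SE 0.18, unadjusted p = 0.0178, adjusted p = 0.0941, edgeR, and adjusted p = 0.0479 without vehicle replicate 2), from vehicle to 10 µM 0.13 (SE 0.20, adjusted p = 0.919) and from 10 to 50 µM 0.36 (SE 0.19, adjusted p = 0.222). Interleukin-6 protein was part of the medium of all cultures, whereas these counts come from the cells' own mRNA. Il6ra, the receptor chain that binds it, was at 91.1 ± 7.99, 89.2 ± 10.0 and 55.3 ± 3.27 CPM with vehicle, 10 µM and 50 µM (SD, n = 4), lower at 50 µM than with vehicle (log2 fold change -0.71, adjusted p = 0.000108) and than at 10 µM (-0.69, adjusted p = 4.28e-05, edgeR). Socs3, a feedback inhibitor induced by interleukin-6 signalling, was at 163, 167 and 104 CPM in the same order (log2 fold change at 50 µM against vehicle -0.64, adjusted p = 0.000103, edgeR). Tnfrsf1b, one of both receptors for TNF, was at 309 ± 8.23, 340 ± 10.9 and 268 ± 17.0 CPM and lower at 50 than at 10 µM (log2 fold change -0.34, adjusted p = 0.00145, edgeR).

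Il12b and Il18 were low in all libraries and passed the test in no comparison. Il12b, the subunit shared by interleukin-12 and interleukin-23, was at 0.794, 0.668, 1.57 and 0.755 CPM with vehicle, at 0.507, 1.69, 0.677 and 0.503 CPM at 10 µM, and at 0.391, 0.879, 1.50 and 1.26 CPM at 50 µM, which rests on 8 to 35 counts per library. Its log2 fold changes were -0.17 (SE 0.48, adjusted p = 0.965, edgeR) at 10 µM and 0.11 (SE 0.44, adjusted p = 0.908, edgeR) at 50 µM. Both are smaller than their errors, so real changes of this size would not have passed the test. Il18, an inflammasome substrate, was at 1.32, 1.52, 1.66 and 1.43 CPM with vehicle, at 2.14, 1.55, 1.47 and 1.60 CPM at 10 µM, and at 1.22, 1.14, 1.36 and 1.55 CPM at 50 µM. Its log2 fold change was 0.19 at 10 µM (SE 0.24, adjusted p = 0.909, edgeR) and -0.16 at 50 µM (SE 0.27, adjusted p = 0.748, edgeR). The groups of both genes overlapped in each comparison.

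Il23a and Il10 stayed below the filter, with no library over 0.5 CPM. Il23a, the second subunit of interleukin-23, had 12, 7, 0 and 5 counts in the vehicle libraries, 2, 0, 1 and 2 at 10 µM and 4, 6, 7 and 1 at 50 µM. Il10 had 0, 2, 0 and 0 counts with vehicle, 4, 0, 1 and 3 at 10 µM and 0 in all 4 libraries at 50 µM, which allows up to 0.0327 CPM over that group (3 counts, counting error only). No fold change was computed for either gene.

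Among the partners and receptors of these cytokines, Il27 and Il12rb1 were higher at 50 µM than in both other groups. Il27, a subunit of interleukin-27, a relative of interleukin-12, was at 2.14 ± 0.534, 1.97 ± 0.531 and 4.28 ± 0.712 CPM with vehicle, 10 µM and 50 µM (SD, n = 4), higher at 50 µM than with vehicle (log2 fold change 1.01, adjusted p = 0.00874) and than at 10 µM (1.12, adjusted p = 0.00359, edgeR). Il12rb1, the receptor chain shared by interleukin-12 and interleukin-23, was at 4.97 ± 0.699, 5.87 ± 0.532 and 13.3 ± 1.81 CPM, again higher at 50 µM than with vehicle (log2 fold change 1.42, adjusted p = 3.94e-05) and than at 10 µM (1.18, adjusted p = 2.03e-05, edgeR). Il12rb2, its partner in the interleukin-12 receptor, was at 21.4 ± 2.82, 22.4 ± 1.20 and 17.4 ± 1.28 CPM and lower at 50 than at 10 µM (log2 fold change -0.36, adjusted p = 0.0129, edgeR). Of the 14 receptor and signalling chains, 1 was higher (Il12rb1) and 4 lower at 50 µM than with vehicle, where 7% of all genes were higher and 6.5% lower. The median log2 fold change was -0.27. Between 50 and 10 µM, 1 was higher and 8 lower (median -0.31, against 0.01 over all genes), where 7.52% of all genes were higher and 7.85% lower. None of the 14 passed at 10 µM against vehicle (edgeR), where 2 had an unadjusted p under 0.05, against 8.78% of all genes.

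Nlrp3 was somewhat lower at 50 than at 10 µM. It was at 190.5, 200.1, 184 and 151 CPM with vehicle, at 165, 186, 206 and 181 CPM at 10 µM, and at 153, 160.0, 149 and 159.7 CPM at 50 µM. The 4 libraries at 50 µM lay below all 4 at 10 µM but overlapped vehicle, whose lowest library, replicate 4, was within their range. The means were 181 ± 21.2, 185 ± 16.8 and 155 ± 5.23 CPM (SD, n = 4). The log2 fold change from 10 to 50 µM was -0.24 (SE 0.07, adjusted p = 0.0265, edgeR), but when single libraries were omitted it passed in only 2 of 8 fits. The adjusted p was 0.108 after omission of 10 µM replicate 3, and 0.0647 when all 12 libraries entered the fit (edgeR). Against vehicle it was 0.02 at 10 µM (SE 0.09, adjusted p = 0.975, edgeR) and -0.21 at 50 µM (SE 0.08, adjusted p = 0.113, edgeR). The ratio of Nlrp3 to Il1b per length was 0.330 ± 0.0235 with vehicle, 0.372 ± 0.0137 at 10 µM and 0.520 ± 0.0748 at 50 µM (SD, n = 4), again as a description. With Il1b and Tnf, Nlrp3 made 3 of the 8 tested genes that differed between 50 and 10 µM, against 15.4% of all genes tested (7.52% higher and 7.85% lower). These 3 were also the ones without overlap, against 20.3% of all genes (9.43% higher and 10.9% lower).

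**Figure D2:**
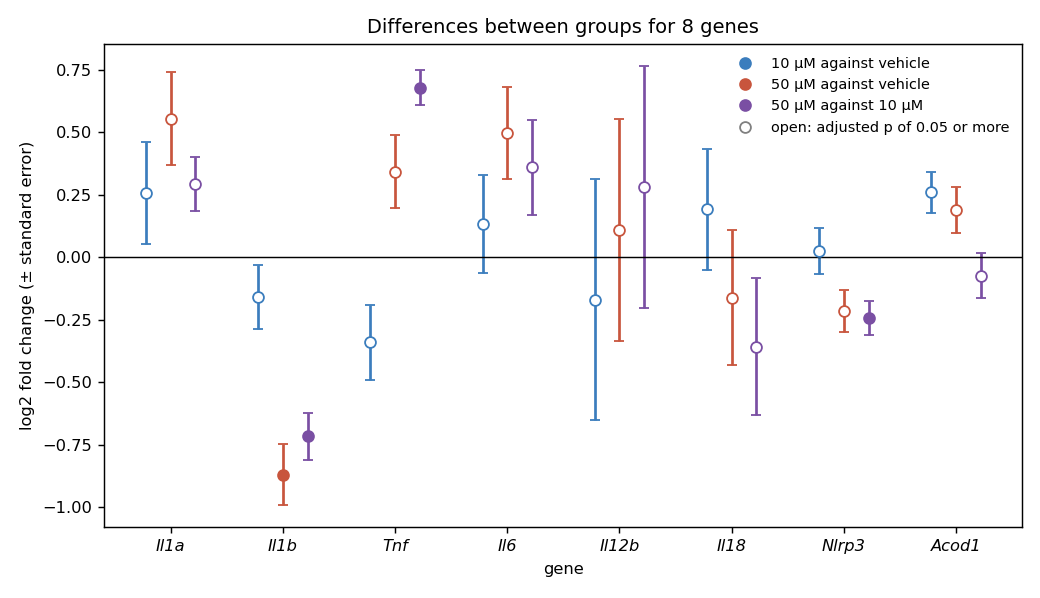
Log2 fold change (vertical axis, with its standard error) of the 8 genes in the 3 comparisons; filled points have an adjusted p under 0.05 (edgeR) and open points do not. Il1b is filled at 50 µM against vehicle (-0.87) and against 10 µM (-0.72), Tnf (0.68) and Nlrp3 (-0.24) only against 10 µM, and no gene at 10 µM against vehicle.

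**Figure D3:**
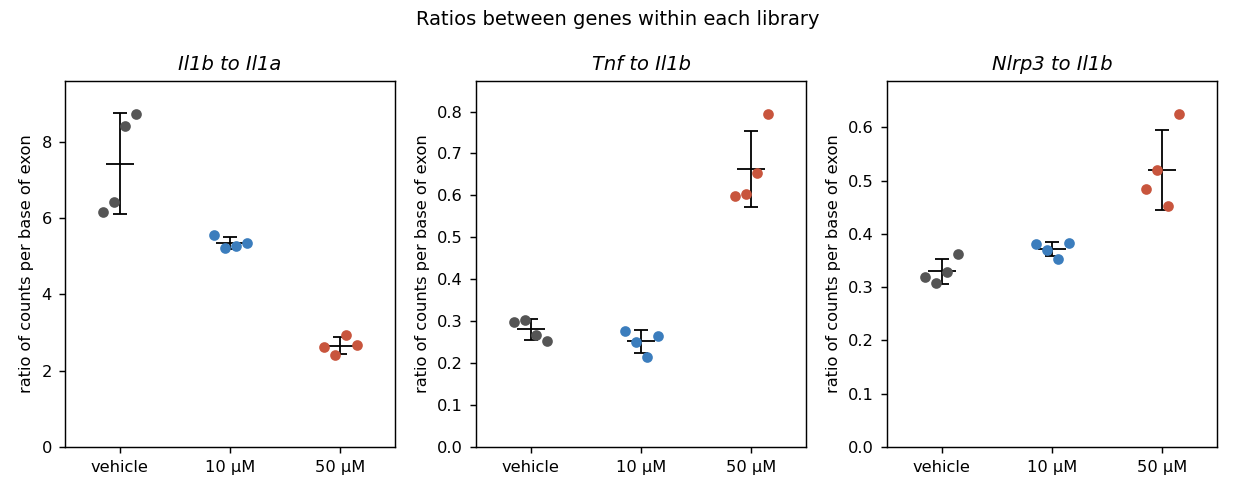
Ratio of counts per base of exon between 2 genes within each library (vertical axes, no unit, from 0), with the 4 libraries of a group as points and mean ± SD in black. Il1b to Il1a falls from 7.43 with vehicle to 5.35 at 10 µM and 2.66 at 50 µM, while Tnf to Il1b and Nlrp3 to Il1b are highest at 50 µM.

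Among 21 other genes of the inflammasome pathway, single components moved in both directions. At 50 µM against vehicle 4 were higher and 2 lower, with a median log2 fold change of -0.01, where 7% of all genes were higher and 6.5% lower. At 50 against 10 µM 2 were higher and 4 lower, with a median of -0.02, where the shares of all genes were 7.52% and 7.85%. Pycard, the adaptor ASC that links sensors to caspase-1, was at 65.9 ± 9.35, 74.7 ± 7.54 and 101.4 ± 17.3 CPM with vehicle, 10 µM and 50 µM (SD, n = 4) and higher at 50 µM (log2 fold change 0.63 against vehicle, adjusted p = 0.00470, edgeR). P2rx7, the ATP-gated channel that triggers NLRP3, was at 28.2, 33.3 and 36.3 CPM (log2 fold change at 50 µM 0.37, adjusted p = 0.0170, edgeR). Naip1, a receptor for bacterial secretion proteins, was at 0.510, 1.14 and 1.79 CPM (1.81, adjusted p = 0.0172, edgeR). In the other direction, Nlrc4, the sensor that works with NAIP proteins, was at 35.8, 30.9 and 26.1 CPM (log2 fold change at 50 µM -0.45, adjusted p = 0.00584, edgeR). Panx1, a membrane channel that releases ATP, was at 29.8, 28.5 and 22.1 CPM (-0.42, adjusted p = 0.00376, edgeR). Nlrp1a, another sensor, was at 18.6, 24.1 and 14.0 CPM and lower at 50 than at 10 µM (log2 fold change -0.78, adjusted p = 0.000649, edgeR). Casp1 and Gsdmd, the protease and the pore protein, were looked up after their values were seen, and their log2 fold changes at 50 µM against vehicle were 0.05 (SE 0.09, adjusted p = 0.798) and 0.22 (SE 0.08, adjusted p = 0.0945, edgeR). At 10 µM against vehicle edgeR's test called none of the 21, of which 3 had an unadjusted p under 0.05, against 8.78% of all genes. The NAIP genes are near copies of each other, so the split of reads among them is uncertain.

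Acod1 passed the test in no comparison. It was at 120.3, 109.6, 104 and 105 CPM with vehicle, at 134, 149.7, 124 and 118 CPM at 10 µM, and at 140.2, 129, 124 and 105 CPM at 50 µM. Both IPA groups overlapped vehicle, by 1 library at 10 µM. The means were 109.7 ± 7.41, 131 ± 14.0 and 124 ± 15.0 CPM (SD, n = 4), with log2 fold changes of 0.26 at 10 µM (SE 0.08, unadjusted p = 0.00944, adjusted p = 0.302, edgeR), 0.19 at 50 µM (SE 0.09, adjusted p = 0.195, edgeR) and -0.07 between 50 and 10 µM (SE 0.09, adjusted p = 0.642, edgeR). No tested member thus passed edgeR's test at 10 µM against vehicle, where 0.41% of all genes passed (0.329% higher and 0.0806% lower), and DESeq2 and limma-voom called none of the 8 either. An unadjusted p under 0.05 was found for 2 of the 8 (Tnf and Acod1) and for 8.78% of all genes. No member was without overlap there, against 6.13% of all genes (3.57% higher and 2.56% lower). Of 18 enzymes in or beside the citric acid cycle, Idh1 was higher at 50 µM than with vehicle (137, 165 and 222 CPM, log2 fold change 0.70, adjusted p = 4.40e-05, edgeR). Idh1 encodes the cytosolic isocitrate dehydrogenase rather than a mitochondrial enzyme of the cycle. It was the single call among the 18, where 13.5% of all genes were called. Against 10 µM, 4 of the 18 were higher at 50 µM and none lower (Idh1 0.43, Idh2 0.31, Idh3g 0.23 and Dlst 0.21 on the log2 scale, adjusted p 0.000103 to 0.0169, edgeR), with a median of 0.11 against 0.01 over all genes. Of all genes, 7.52% were higher and 7.85% lower there.

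Among 18 genes for NF-κB subunits and for feedback inhibitors of cytokine signalling, Socs3, described above as an inhibitor in the interleukin-6 pathway, was the one that passed the test at 50 µM. It was lower against vehicle and against 10 µM, where 13.5% and 15.4% of all genes were called. The median log2 fold changes were -0.06 at 10 µM, -0.04 at 50 µM against vehicle and 0.02 at 50 against 10 µM. Nfkbia, which encodes the inhibitor IκBα and was looked up after its values were seen, had a log2 fold change of 0.03 at 50 µM against vehicle (SE 0.07, adjusted p = 0.799, edgeR).

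Among other cytokine genes of myeloid cells, Csf1, Lif, Il33 and Il1f9 were higher at 50 µM than with vehicle. Of 11 that passed the filter, 5 were higher and 1 lower at 50 µM than with vehicle, where 13.5% of all genes differed. Against 10 µM 4 of the 11 were higher and 1 lower, where 15.4% of all genes differed. Both counts of higher genes include Il27, described above, which is also counted among the partner subunits and antagonists. Csf1, the macrophage growth factor, was at 91.4, 126 and 187 CPM with vehicle, 10 µM and 50 µM (log2 fold change at 50 µM against vehicle 1.04, adjusted p = 1.47e-05, edgeR). Lif, leukaemia inhibitory factor, a cytokine of the interleukin-6 family, was at 3.83, 3.36 and 13.5 CPM (1.83, adjusted p = 1.42e-05, edgeR). Il1f9, an interleukin-1 family cytokine, was at 59.6, 55.8 and 71.6 CPM (0.27, adjusted p = 0.0359, edgeR). Il33, the interleukin-1 family alarmin, was at 1.09, 3.84 and 2.19 CPM. It was the one gene of all 6 lists that passed at 10 µM against vehicle (log2 fold change 1.82, adjusted p = 0.0213, edgeR), where 0.41% of all genes passed. An unadjusted p under 0.05 was found there for 3 of the 11 genes (edgeR), against 8.78% of all genes. Il16, a T cell chemoattractant, was at 49.7, 44.0 and 41.3 CPM (-0.26 at 50 µM, adjusted p = 0.0455, edgeR).

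**Figure D4:**
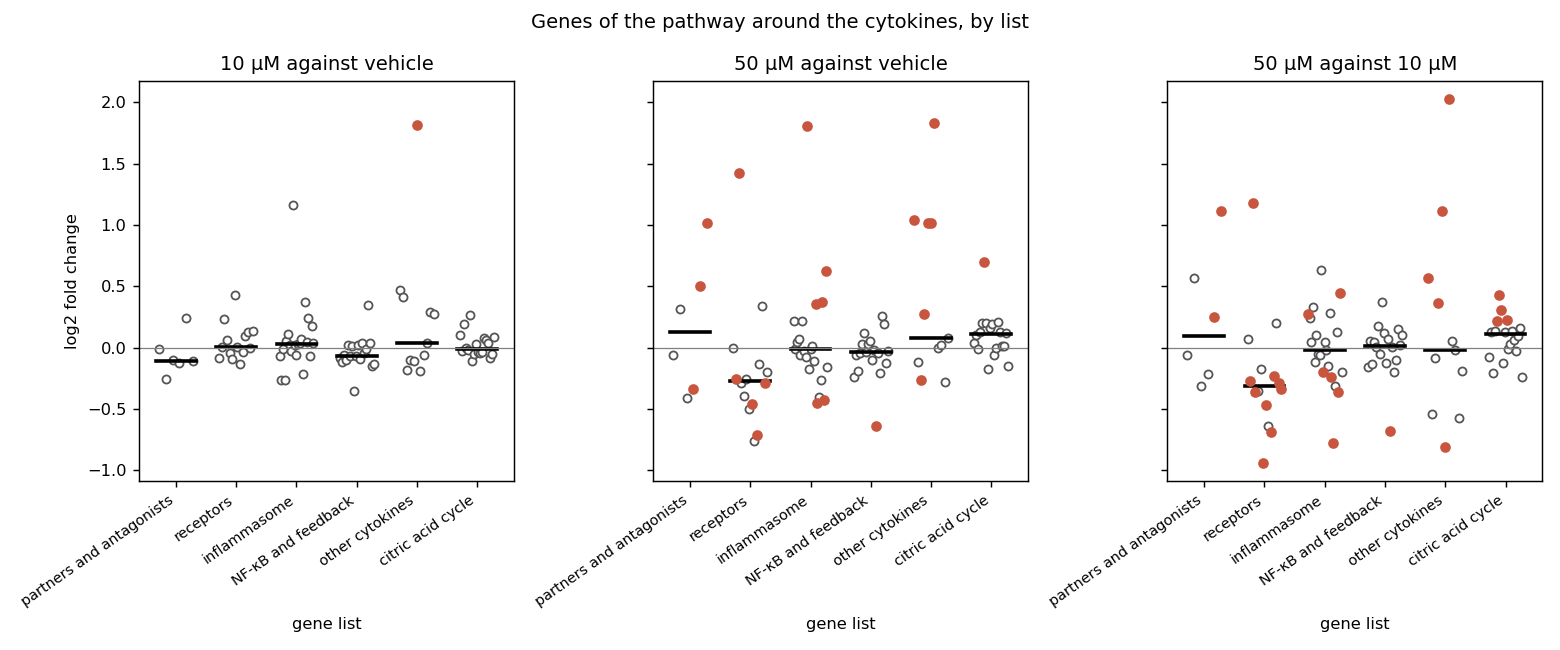
Log2 fold changes (vertical axis) of the single genes of 6 lists around the 10 genes, in the 3 comparisons; red points have an adjusted p under 0.05 (edgeR), open points do not, and black lines are list medians. Red points are rare at 10 µM (Il33 alone), and at 50 µM against vehicle the receptors have the lowest median (-0.27).

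Il1a and Il1b varied together from library to library within groups. Over the 12 libraries, taken as deviations from their group means on the log2 CPM scale, Pearson's r was 0.91 between them, and over the 8 libraries with IPA alone it was 0.89. For Il1b and Nlrp3 r was 0.80 over the 12 libraries and 0.52 over the 8, and at 50 µM these genes ran in opposite directions (r = -0.73 over 4 libraries). For Il1b and Tnf it was 0.75 over the 12 and 0.17 over the 8, so the value over all libraries rests on the vehicle libraries, among which replicate 4 was lowest for Il1a, Il1b, Tnf and Nlrp3. For Acod1 r over the 12 libraries was 0.41 with Il1a, 0.36 with Il1b, 0.13 with Tnf and 0.0090 with Nlrp3. Over the same libraries without removing the group means, r was -0.24 between Il1a and Il1b and -0.39 between Il1b and Tnf. The group means of Il1b went down from vehicle to 50 µM while those of Il1a went up, whereas Il1b and Tnf both had lower means at 10 µM than with vehicle and parted at 50 µM. The values share libraries, normalization and depth, and they are given as a description. Il12b had values of r between -0.12 and 0.23 with the other 7 genes within groups.

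The genes whose log2 CPM was most like that of each member over the 12 libraries are also a description, since all of them share libraries and groups. For Il1b these were Fam168b (r = 0.96), Il6ra (0.95) and Igsf6 (0.95), for Il1a Rgl1 (0.95), Ssfa2 (0.94) and Cd2ap (0.92), and for Tnf Apobec3 (0.97), Stat5a (0.95) and Trit1 (0.94). Nlrp3 was most like Prdm11 (0.95), Irs2 (0.94) and Rest (0.94), and Acod1 most like Nhlrc3 (0.90), Abcg2 (0.88) and Slc11a1 (0.88). Of the low genes, Il6 was most like Stag3 (0.98), Gm15344 (0.94) and Soat2 (0.93), Il18 most like Gm1840 (0.90), Arsk (0.89) and Slc35f6 (0.89), and Il12b reached no more than 0.75 (C330018D20Rik).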

How the data were processed

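RNA-seq counts of bone marrow cells cultured to day 5 with vehicle, 10 µM or 50 µM IPA were used, with 4 libraries in each of 3 groups. The deposited values are raw counts per Ensembl gene, which the authors made by trimming reads, aligning them to mm10 and counting them on genes. Per the submitters' processing notes the tools included HISAT2 2.2.1, featureCounts 2.0.1 and DESeq2 1.40.2. The library kit was stranded, and the strand setting of the counting is not given in the sources used here. Groups and replicate numbers came from the sample labels. The 10 genes and the lists around them were chosen with earlier results of these data known.

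The genes that exceeded 0.5 CPM in 2 or more of the 12 libraries were tested with edgeR 4.0.16 in R 4.3.3 (TMM, quasi-likelihood test), for each pair of groups on its 8 libraries and without a block, with Benjamini-Hochberg adjustment over 14894 genes and a threshold of 0.05. The pairs share libraries. CPM values are TMM-normalized over 12 libraries and given as mean ± SD. The scripts were tested on simulated counts. No 2 libraries of a group were copies of each other by a chi-square test of their counts.

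All 10 genes are named. A gene of a list was named if called in 1 or more comparisons, up to the 6 largest changes a list, and for each member the 3 genes of at least 1 CPM with the highest Pearson's r (prior count 2). Within-library ratios, added after the levels had been seen, are given as a description. Exon lengths are those of GENCODE M21 (GRCm38), and promoters are from RefSeq (GRCm38.p6). Alternatives were DESeq2 1.42.0, limma-voom (limma 3.58.1), edgeR with the size factors of DESeq2, omission of the filter, a minimum of 10 counts in each library compared, all 12 libraries in the fit, a replicate block, an offset for exon length (lowess, span 0.3), and leaving out each library. Counts of at most 35 per library for Il12b and 59 for Il18 limit their precision.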

Additional observations from a re-analysis of the deposited data

Results flagged for a closer look

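Single libraries stood apart from the others of their group in 3 of the 24 groups checked (8 genes in 3 groups, by Dixon's test), where chance gives about 1 in 20 groups. Tnf was at 48.4 CPM in replicate 1 of the 10 µM group, below 3 libraries that lay within 50.6 and 50.9 CPM, so that the gap is small in size. Il12b was at 1.57 CPM in vehicle replicate 3, where the others were at 0.668 to 0.794 CPM, and at 1.69 CPM in replicate 2 of the 10 µM group, where the others were at 0.503 to 0.677 CPM. Both Il12b values rest on 35 counts. No explanation was tested.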

How the results depend on the processing

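Of 8 genes in 3 comparisons, the calls of Il1b (50 µM against both other groups) and Tnf (50 against 10 µM) held under all alternatives run. The number of genes called at 10 µM against vehicle (61) moved most, to 242 with DESeq2, 150 without a filter, 118 with all 12 libraries, 102 with the length offset and 3 with a replicate block. Deviations of same-numbered libraries had correlations of -0.24 to 0.14. With 4 libraries in a group, such values cannot decide whether equal numbers share a source of marrow. With the block 1830 genes were called at 50 µM against vehicle and 2200 against 10 µM, 2 and 3 of the members among them. Members called at 50 µM against vehicle (1) were 2 with DESeq2 (Il1a added), 3 without a filter (Il1a and Tnf, adjusted p = 0.0481, edgeR) and 2 with the block. At 50 against 10 µM, Nlrp3 was lost with all 12 libraries and Il1a was added without a filter (edgeR, adjusted p = 0.00951). A minimum of 10 counts in each library left no value for Il12b at 50 µM.

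Leaving out 1 library gave 4 (without 10 µM replicate 2) to 122 genes (without vehicle replicate 4) at 10 µM against vehicle, 1248 to 2689 at 50 µM against vehicle (without vehicle replicates 3 and 4) and 1604 to 2269 at 50 against 10 µM. Members called ranged from 0 to 1 (Tnf without vehicle replicate 4), 1 to 4 and 2 to 3. The 4 arose without vehicle replicate 2 (Il1b, Il1a, Il6 at adjusted p = 0.0479 and Tnf at 0.0439, edgeR), and Nlrp3 passed without vehicle replicate 4 (log2 fold change -0.29, adjusted p = 0.00507, edgeR). The sign turned for differences near 0, none of them called. Over the fits that left out 1 library, the log2 fold changes at 10 µM were -0.73 to 0.18 for Il12b, -0.054 to 0.074 for Nlrp3 and -0.028 to 0.26 for Il6, those at 50 µM against vehicle -0.14 to 0.46 for Il12b, and those at 50 against 10 µM -0.14 to 0.0016 for Acod1. The causes were not tested.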
